A study of Mus musculus with 18 samples.

Results

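Trophoblast stem cells (TSCs) and extra-embryonic endoderm stem (XEN) cells kept in normoxia were compared gene by gene, with 2 libraries of each cell type. These are 4 of the 18 bulk RNA-seq libraries of the series, and they were chosen by their labels alone. The series covers 3 mouse stem cell types, embryonic (ESCs), TSCs and XEN cells, each in normoxia and after 2 or 7 days of hypoxia. Of 13518 genes in the TSC table and 11538 in the XEN cell table, 11161 stood in both and entered the comparison. A further 2357 genes had a row in the TSC table only and 377 in the XEN cell table only, and these are described apart.

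TSCs are the cultured counterpart of the trophectoderm, the outer layer of the blastocyst that gives rise to the placenta, and they depend on FGF4 signalling for self-renewal. XEN cells are the counterpart of the primitive endoderm, which lines the blastocyst cavity and forms the visceral endoderm around the embryo and the parietal endoderm of the yolk sac. Parietal endoderm cells are known for laying down Reichert's membrane, a thick basement membrane, whereas visceral endoderm cells absorb and process nutrients for the embryo.

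The labels give neither a cell line nor a genotype for TSCs or XEN cells, and no treatment other than the oxygen condition. The ESC libraries, used below for chromosomes, are labelled E14, a line that the methods call wild type. According to the methods of the study, TSCs were grown on mouse embryonic fibroblast feeders in RPMI medium with serum, FGF4 and heparin. XEN cells were grown on gelatin-coated plates, in DMEM with serum that had in part been conditioned on fibroblasts. Both lines came from the same outside laboratory. The 2 libraries of a type are biological replicates, and neither the labels nor the methods say whether each type is represented by more than 1 line. Cell type, line, sex of the line, medium and feeders therefore cannot be told apart in this comparison, and the p-values measure the spread between these libraries only.

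The deposited values are TPM, transcripts per 1000000, which the authors scaled to a sum of 1000000 in each library over the genes of its own table. Here each library was rescaled to the same sum over the 11161 shared genes, which multiplied TSC values by 1.0417 and 1.0446 and XEN cell values by 1.0044 and 1.004. Values of genes in 1 table only are the deposited TPM multiplied by the same factor of their library. The TPM follow the genomic span of each gene with its introns, so levels of different genes compare reads per base of span. The TSC libraries rest on 43303183 and 44073144 recovered reads, and the XEN cell libraries on 43683121 and 72029024. Of the shared genes, 10809 exceeded a rescaled TPM of 0.4 in at least 2 of the 4 libraries and were tested with limma on log2(rescaled TPM + 0.5), and 352 were not tested. Calls required a Benjamini-Hochberg adjusted p of 0.1 or less together with a fold change over 1.5. Log2 fold changes are TSCs over XEN cells, so negative values are higher in XEN cells, and they understate the change of genes near 0. With 2 libraries a side the smallest p of an exact permutation test is 0.333, so none is given for single genes.

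Pearson's r on the log2 scale, taken over genes (which are no replicates of each other), was 0.9776 between the TSC libraries, 0.9836 between the XEN cell libraries and 0.817 to 0.835 between libraries of different cell types. The replicates differed by more than 2-fold in 571 genes (5.28%) in TSCs and in 453 (4.19%) in XEN cells. The cell types were checked against their markers. The trophoblast factors Cdx2, Eomes, Tfap2c, Esrrb and Sox2 had rows in the TSC table only, with Cdx2 at 145 and 130.5 TPM and Eomes at 458 and 380. Elf5, a transcription factor that keeps trophoblast cells in their lineage, stood at 62.96 and 59.2 in TSCs against 0.06297 and 0.135 in XEN cells. Of the other TSC markers, Tead4 (27.3 and 27.1 in TSCs against 23.5 and 16.7 in XEN cells) and Fgfr2 (0.596 and 0.542 in TSCs against 0.277 and 0.293 in XEN cells) did not pass the test. All 12 XEN cell markers were measured in XEN cells. Gata4, a GATA factor of the primitive endoderm, stood at 198 and 194 in XEN cells and 1.21 and 1.38 in TSCs, and Sox17 at 1295 and 1013 TPM in XEN cells with no row in the TSC table. The ESC marker Nanog was listed for TSCs only, at 1.501 and 1.27 TPM, and Pou5f1 for XEN cells only, at 0.846 and 1.27 TPM. Of the other ESC markers Dppa5a was also low, while Klf4 stood at 104 and 89.4 in TSCs against 1198 and 824 in XEN cells and Zfp42 stood at 55.6 and 50.7 TPM in the TSC table only, and the ESC markers summed to 162 and 143.3 in TSCs against 1202 and 828.6 in XEN cells, most of it Klf4. The TSC and XEN cell markers were higher in the libraries labelled with them or listed for that type only, though Tead4 and Fgfr2 were not called.

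Markers of feeder fibroblasts were found in the TSC libraries and at or near 0 in XEN cells. All 9 markers had a row in the TSC table, and their summed level was 1993 in TSC replicate 1 and 302.1 in replicate 2. In XEN cells only Col1a2 was listed, at 0.0674 and 0.201. The type I collagen gene Col1a1 stood at 891 and 107 TPM and the fibroblast surface protein Thy1 at 632 and 118 TPM in the TSC libraries, and each marker was higher in replicate 1. Markers of differentiated trophoblast also differed between the TSC libraries and ran the other way, with sums of 9025 and 15080, most of it Hand1. The labyrinth gene Syna stood at 10.3 and 242 in TSCs against 2.44 and 4.67 in XEN cells and did not pass the test (adjusted p = 0.11, limma). In bulk RNA, more cells of a type and more RNA per cell cannot be told apart. What feeder RNA contributed to genes called higher in TSCs was not tested, and TSC libraries are given apart for genes where they differ widely. Of the 2536 genes called higher in TSCs, 153 were over 2-fold higher in TSC replicate 1 than in replicate 2, and 56 were over 2-fold higher in replicate 2. Among all 10809 genes tested these counts were 445 and 126.

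**Figure D1:**
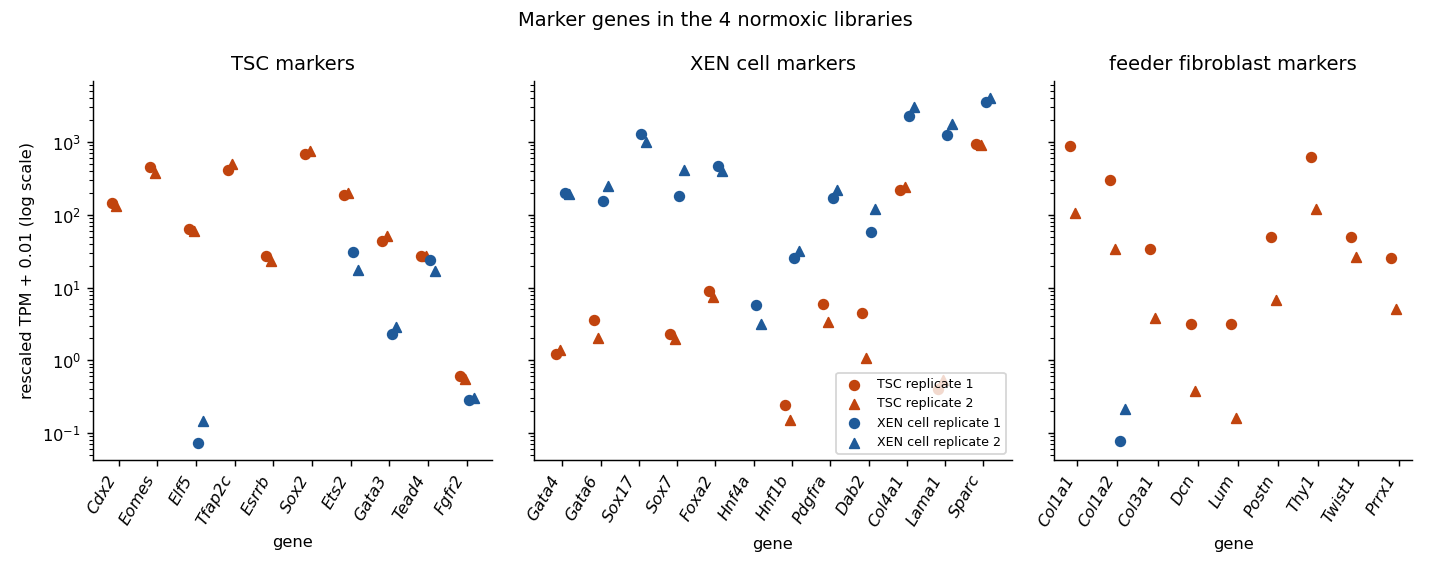
Level of marker genes in each library, on a log scale of TPM (multiplied by the library's factor for all genes), with TSCs in orange, XEN cells in blue, circles for replicate 1 and triangles for replicate 2. A gene without blue or orange points has no row in that cell type's table. The TSC and XEN cell markers are higher in their own libraries or listed there only, though Tead4 and Fgfr2 were not called. The feeder fibroblast markers are lower in TSC replicate 2 than in replicate 1.

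Of the 10809 genes tested, 4643 (43%) were called, 2536 (23.5%) higher in TSCs and 2107 (19.5%) higher in XEN cells. All genes tested had a median log2 fold change of 0.03. The largest differences lay more often on the TSC side. Over 4-fold, 815 genes were higher in TSCs and 369 in XEN cells, and over 64-fold the counts were 52 and 12. The libraries of the cell types did not overlap in 76.2% of all genes tested and in every called gene. The filter kept 289 genes through the TSC libraries alone, of which 260 were called, and 120 through the XEN cell libraries alone, of which 99 were called. A gene that passed the filter through 1 cell type alone had to differ. Genes named below that passed through TSCs alone include Elf5, Cdh3, Pdgfb, Pdgfrb, Fgfr1, Smad1, Fstl1, Mmp2, Grb10, Rxra and Pfkp. Cubn, Fgf10 and Uty are among those that passed through XEN cells alone. How the calls divided between the types depended on the scaling. The share of calls that were higher in TSCs was 54.6% here, 43.8% after quantile normalization and 63.1% on CPM (counts per 1000000) of the recovered reads, with medians over all genes of -0.105 and 0.15. No gene called here was called in the opposite direction under any alternative.

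**Figure D2:**
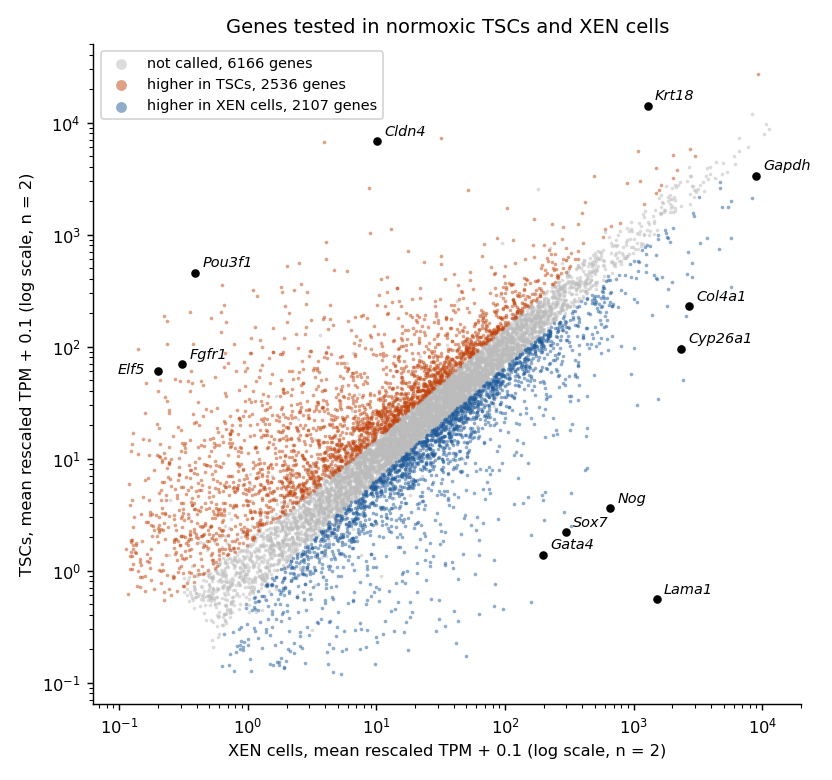
Mean rescaled TPM of each gene tested in TSCs (vertical axis) and XEN cells (horizontal axis), both on log scales, n = 2 each. Orange points are the 2536 genes called higher in TSCs, blue points the 2107 called higher in XEN cells and grey points those not called. The black points are named examples, with Cldn4 and Pou3f1 far to the TSC side and Lama1, Nog and Gata4 far to the XEN cell side.

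Among called genes with a mean of at least 10 in the higher cell type, the tight junction gene Cldn4 was among the 10 largest differences on the TSC side. Its rescaled TPM were 6233 and 7344 in TSCs against 19.1 and 0.833 in XEN cells, with a log2 fold change of 10.37 ± 1.27 (SE, adjusted p = 0.00544, limma), and its XEN cell libraries differed widely from each other. The POU factor gene Pou3f1 stood at 439.8 and 471 in TSCs against 0.482 and 0.0983 in XEN cells, a log2 fold change of 9.21 ± 0.28. Cldn4 and Pou3f1 were each above 400 in both TSC libraries and below 20 in both XEN cell libraries. Other genes among the 10 largest, with log2 fold changes in parentheses as for single values in parentheses hereafter, were AU018091 (8.53), the epithelial cell cycle gene Sfn (8.21), the growth factor gene Pdgfb (8.17), the chromatin factor gene Utf1 (8.11), the arginine synthesis gene Ass1 (7.86), the desmosome-associated gene Perp (7.80) and the tropomyosin gene Tpm2 (7.67). Their levels in TSCs ranged from 122 for Pdgfb in replicate 1 to 8465 for Sfn in replicate 2.

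On the XEN cell side the largest difference was that of Lama1 (chr17:67697259-67822647, mm10), which encodes the α chain of the laminin of early basement membranes. It stood at 0.396 and 0.519 in TSCs against 1248 and 1776 in XEN cells, a log2 fold change of -10.61 ± 0.22 (adjusted p = 0.000636, limma). Srgn, which encodes a secretory proteoglycan core protein, stood at 0.729 and 0.118 in TSCs against 180.1 and 137 in XEN cells. The BMP antagonist gene Nog stood at 3.98 and 3.02 in TSCs against 633 and 677 in XEN cells, a log2 fold change of -7.37 ± 0.17. None of these overlapped between the cell types, which held for every called gene and for 76.2% of all genes tested. The replicates of Nog were close to each other in both cell types. The remaining genes of the 10 largest were the receptor tyrosine kinase gene Kit (-6.84), the lysosomal protease gene Ctsh (-6.82), Gata4 (-6.78), the SOX factor gene Sox7 (-6.73), the adenosine receptor gene Adora1 (-6.52), Flrt3 (-6.46), which encodes a membrane protein that binds FGF receptors, and the endocytic receptor gene Cubn (-6.43).

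Genes in 1 table only had not passed the authors' filter of 0.4 CPM in at least 2 of 6 libraries in the other cell type. No fold change was computed for them. In the TSC table, 1170 of the 2357 such genes had a mean TPM over 1 in normoxia, 305 over 10 and 44 over 100. The bHLH factor gene Hand1 was the highest, at 9008 and 14830 TPM. It was followed by the X-linked homeobox genes Rhox6 (2499 and 3814) and Rhox9 (2058 and 3050), whose family members are similar in sequence, so reads may be shared between them. The imprinted growth factor gene Igf2 stood at 1379 and 2244 TPM and the imprinted cell cycle inhibitor gene Cdkn1c at 899 and 2131 TPM. Each of these 5 genes was higher in TSC replicate 2. The other genes among the 10 highest were Cldn3, Sct, Sox2, Lox and Krt7. Lox, which encodes a collagen crosslinking enzyme, was the only one of the 10 that was higher in replicate 1, at 1299 and 101 TPM. Of the 1306 that exceeded 1 TPM in a TSC library, 472 were over 2-fold higher in replicate 1 and 128 in replicate 2.

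In the XEN cell table, 188 of the 377 genes listed there only had a mean TPM over 1, 44 over 10 and 6 over 100. The endoderm factor gene Sox17 led with 1295 and 1013 TPM, followed by the water channel gene Aqp8 (632 and 686) and the vitamin D-dependent calcium-binding gene S100g (262 and 134). Pga5, which encodes a pepsinogen, stood at 149 and 159 TPM and the hedgehog ligand gene Ihh at 80.4 and 59.6 TPM. Tcf23, Sp8, Hkdc1, Prss35 and Pdzd3 completed the 10 highest. Sp8 (64.7 and 143) and Pdzd3 (33.3 and 107) were over 2-fold apart between the XEN cell libraries.

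**Figure D3:**
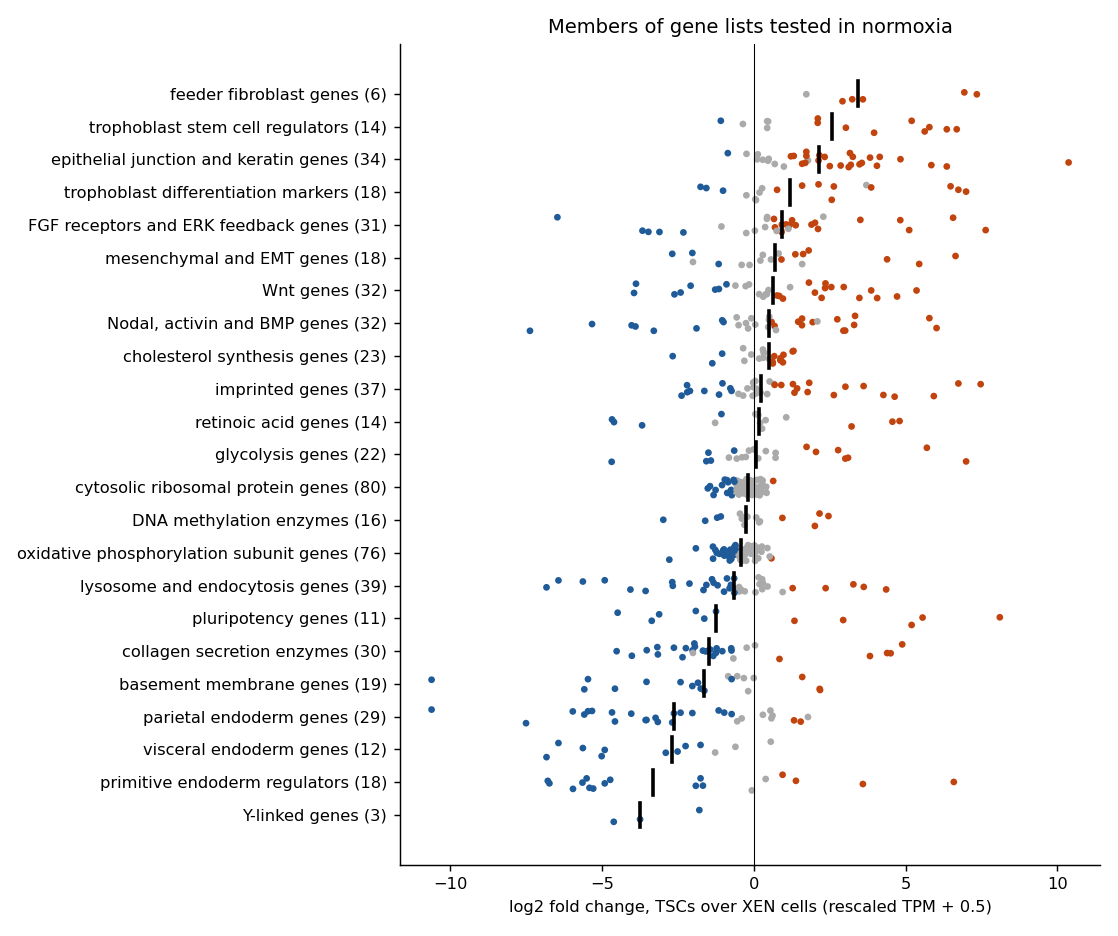
Log2 fold change, TSCs over XEN cells, of the tested members of each gene list, with the number of tested members in brackets. Each point is a gene, orange when called higher in TSCs, blue when called higher in XEN cells and grey when not called, and the black bar is the median of the list. Epithelial and trophoblast stem cell lists lie to the right of 0 and primitive endoderm, parietal endoderm and basement membrane lists to the left.

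The gene lists below were drawn up with earlier results of these data known, so their counts are descriptions, to be read against the 23.5% and 19.5% of all genes tested. Of 26 trophoblast stem cell regulators, 14 were tested and 12 had a row in the TSC table only. Among the 14, 9 were higher in TSCs, 1 was higher in XEN cells and 4 were not called, with a median log2 fold change of 2.58. Elf5 had the largest log2 fold change, 6.69 ± 0.19. Next was the placental cadherin gene Cdh3, at 39.4 and 61.3 in TSCs against 0.147 and 0.0652 in XEN cells. Both Elf5 and Cdh3 passed the filter through the TSC libraries alone, so they had to differ. The inhibitor of differentiation gene Id2 stood at 701 and 713 in TSCs against 4.82 and 30.4 in XEN cells and the trophoblast factor gene Gata2 at 81.5 and 157 in TSCs against 1.55 and 2.06 in XEN cells. All of these were well above XEN cells in both TSC libraries. The member higher in XEN cells was Tet1, which encodes an enzyme that oxidises 5-methylcytosine, at 1.19 and 1.43 in TSCs against 2.76 and 3.99 in XEN cells, and it was not called without XEN cell replicate 2 (log2 fold change -0.85, adjusted p = 0.126, limma). Klf5 was among the most abundant members and did not pass the test, at 175 and 181 in TSCs against 169.8 and 307 in XEN cells (adjusted p = 0.384, limma). Of the 12 members in the TSC table only, the BMP ligand gene Bmp4 stood at 103 and 136 TPM, Zfp42 at 55.6 and 50.7 and the nuclear receptor gene Nr0b1 at 13.3 and 13.2.

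Markers of differentiating trophoblast were mixed. Of 35 listed, 18 were tested, 9 higher in TSCs and 3 higher in XEN cells with a median of 1.18, while 10 had a row in the TSC table only and 7 in neither table. The lactate transporter gene Slc16a3, found on the syncytiotrophoblast, stood at 348 and 372 in TSCs against 3.496 and 1.496 in XEN cells. Phlda2, an imprinted gene known to restrain placental growth, stood at 203 and 416 in TSCs against 4.63 and 0.943 in XEN cells, and the trophoblast surface gene Plet1 at 432 and 516 in TSCs against 9.402 and 2.31 in XEN cells. In contrast the other lactate transporter gene of the list, Slc16a1, was higher in XEN cells (120.1 and 127 in TSCs against 338 and 393 in XEN cells), as were the transcriptional coregulator genes Cited1 (-1.75) and Cited2 (-1.01). The markers of differentiated types ranged widely in the TSC libraries. Hand1, known from giant cells, stood at 9008 and 14830 TPM and Syna, a syncytiotrophoblast gene, at 10.3 and 242. The spongiotrophoblast gene Ascl2 stood at 4.53 and 7.71 TPM, the syncytiotrophoblast factor gene Gcm1 at 0.201 and 0.913 and the giant cell hormone gene Prl3d1 at 0.404 and 1.22, and Tpbpa and Ctsq had no row in either table. All 8 placental prolactin family genes that were listed and both placental cathepsin genes had rows in the TSC table only, the highest being Prl2c3 at 14.1 and 8.196 TPM and Ctsj at 2.23 and 17.1. Of the Serpinb9 cluster, 5 genes were in the TSC table only and the remaining members, Serpinb9 (2.87) and Serpinb9b (2.82), were called higher in TSCs, Serpinb9b not without TSC replicate 2 (log2 fold change 2.30, adjusted p = 0.171, limma). These families have near-identical members, so the assignment of reads within them is uncertain.

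The primitive endoderm regulators ran the other way. Of 26 listed, 18 were tested, 12 higher in XEN cells and 4 higher in TSCs, with a median log2 fold change of -3.31, and Sox17, Hnf4a and Otx2 were in the XEN cell table only. Another 5 were in the TSC table only, namely Eomes, which is also a trophoblast factor, Gsc (9.24 and 4.02 TPM), Cxcr4 (7.18 and 2.78 TPM), Foxa1 (1.46 and 1.72 TPM) and Nr5a2. The log2 fold change was -6.78 ± 0.15 for Gata4 and -6.73 ± 0.41 for Sox7. Gata6, which specifies the lineage, stood at 3.51 and 1.999 in TSCs against 155 and 245 in XEN cells, and the pioneer factor gene Foxa2 at 8.84 and 7.505 in TSCs against 467 and 396 in XEN cells. Each of these 4 factors was at least 10-fold higher in every XEN cell library than in either TSC library. The members higher in TSCs were Pdgfa, which encodes the ligand of PDGF receptor α, the receptor gene Pdgfrb, Klf6 and Foxa3. Pdgfa stood at 118 and 181 in TSCs against 1.17 and 0.885 in XEN cells, whereas the receptor gene Pdgfra, known as a primitive endoderm marker, stood at 5.85 and 3.35 in TSCs against 168 and 219 in XEN cells. Ligand and receptor, the latter named after its values were seen, differed in opposite directions, by 6.59 ± 0.27 and -5.28 ± 0.30 on the log2 scale. Pdgfrb is also a fibroblast gene and stood at 15.5 and 2.95 in the TSC libraries, with the feeder markers. The call of Foxa3 was lost without TSC replicate 2 or without XEN cell replicate 2, and after quantile normalization, where the log2 fold change was 0.58 (adjusted p = 0.185, limma).

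Of 32 visceral endoderm genes, 12 were tested, of which 9 were higher in XEN cells and the other 3 were not called. The median was -2.70. A further 7 were in the XEN cell table only and 12 in neither table, and the cubilin partner gene Amn was in the TSC table only, at 2.87 and 1.39 TPM. The endocytic receptor genes, which serve the absorptive role of this tissue, were among those that differed most. Cubn stood at 0.115 and 0.0317 in TSCs against 42.1 and 56.5 in XEN cells, Lrp2, which encodes megalin, at 0.591 and 0.0809 in TSCs against 30.8 and 48.7 in XEN cells, and their adaptor gene Dab2 at 4.47 and 1.06 in TSCs against 57.5 and 119.5 in XEN cells. The lysosomal protease gene Ctsh stood at 3.46 and 1.35 in TSCs against 434 and 215 in XEN cells. None of the 4 overlapped between the cell types, which held for every called gene and for 76.2% of all genes tested. Hhex, a homeobox gene of the anterior visceral endoderm, stood at 2.85 and 0.672 in TSCs against 63.9 and 62.3 in XEN cells, and it lies in the stretch of chromosome 19 described below. The secreted serum proteins of mature visceral endoderm were low and had rows in the XEN cell table only, with Afp at 1.62 and 0.291 TPM, Ttr at 3.66 and 5.17 and Apoa2 at 5.14 and 6.14. The apolipoprotein gene Apoe did not pass the test. It stood at 395 and 102 in TSCs against 149 and 124 in XEN cells, and its log2 fold change was 0.56 with all libraries and -0.41 without TSC replicate 1.

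Parietal endoderm genes were measured almost completely, 29 of 30 tested and Pga5 in the XEN cell table only. Among the 29, 20 were higher in XEN cells, 2 higher in TSCs (5 without XEN cell replicate 1) and 7 not called, with a median of -2.63. Apart from the laminins, the largest differences were those of Srgn (-7.50 ± 0.38) and of Plat, which encodes the tissue plasminogen activator and stood at 2.21 and 1.72 in TSCs against 111 and 208 in XEN cells. Plat did not overlap between the cell types, like every called gene and 76.2% of all genes tested. Serpinh1, which encodes the collagen chaperone of the endoplasmic reticulum, and Sparc, a secreted collagen-binding protein, were among the most abundant genes of the list. Serpinh1 stood at 1056 and 797 in TSCs against 5039 and 6367 in XEN cells and Sparc at 935 and 910.3 in TSCs against 3513 and 3987 in XEN cells. Rhou (1.55) and Itga6 (1.33) were higher in TSCs, Itga6 not without TSC replicate 1. The keratin gene Krt19 stood at 324 and 1190 in TSCs against 359.8 and 89.5 in XEN cells and did not pass the test (adjusted p = 0.176, limma).

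The basement membrane genes include the structural proteins of Reichert's membrane. Of 34 listed, 19 were tested, 11 higher in XEN cells and 3 higher in TSCs, with a median of -1.62, 9 were in the TSC table only and 1 in the XEN cell table only. The chains of the main embryonic laminin, encoded by Lama1, Lamb1 and Lamc1, were all higher in XEN cells. Lamc1 stood at 46.9 and 53.7 in TSCs against 2149 and 2727 in XEN cells, a log2 fold change of -5.58 ± 0.17, and Lamb1 at 127 and 74.1 in TSCs against 1942 and 2747 in XEN cells, a log2 fold change of -4.57 ± 0.32. In XEN cells Lama1, Lamb1 and Lamc1 stood within a range of 1248 to 2747 per base of gene span, while in TSCs Lama1 was below 1 and the other chains were at 46.9 or more. The laminin-linking nidogen gene Nid2 stood at 5.503 and 2.85 in TSCs against 170.3 and 227 in XEN cells. The 2 collagen IV chains of embryonic basement membranes are encoded by Col4a1 and Col4a2, which are transcribed away from each other from a shared promoter region. Col4a1 (chr8:11198423-11312826, mm10) stood at 216 and 244 in TSCs against 2294 and 3072 in XEN cells, a log2 fold change of -3.53 ± 0.18 (adjusted p = 0.001, limma). Col4a2, which lies outside the rule for naming genes and was added after its values were seen, stood at 108 and 124 in TSCs against 517 and 733 in XEN cells, a log2 fold change of -2.41 ± 0.21. Members higher in TSCs were the dystroglycan gene Dag1 (2.19), Npnt (2.17) and Lama5, the laminin α chain known from epithelia, which stood at 140.5 and 139 in TSCs against 42.5 and 49.3 in XEN cells. The listed genes in the TSC table only were low, the highest being Col18a1 at 10.5 and 7.26 TPM.

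Because Col4a1 and Col4a2 moved together, their promoter windows are shown, 250 bases before to 50 after the annotated start (RefSeq, GRCm38.p6, read 5′ to 3′ on the strand of the gene). The starts lie 21 bases apart and the windows share 78 bases. The Col4a1 window is chr8:11312777-11313076 on the minus strand, and the Col4a2 window is chr8:11312555-11312854 on the plus strand. Capitals mark matches to the letters searched for TFAP2 factors (GCCNNNGGC).
Col4a1: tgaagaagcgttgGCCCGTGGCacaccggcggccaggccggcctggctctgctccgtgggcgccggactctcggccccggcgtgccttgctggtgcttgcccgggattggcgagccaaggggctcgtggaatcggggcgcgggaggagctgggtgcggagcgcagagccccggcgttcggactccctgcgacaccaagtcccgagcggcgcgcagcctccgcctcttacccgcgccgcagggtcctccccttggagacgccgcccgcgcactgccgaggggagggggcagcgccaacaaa
Col4a2: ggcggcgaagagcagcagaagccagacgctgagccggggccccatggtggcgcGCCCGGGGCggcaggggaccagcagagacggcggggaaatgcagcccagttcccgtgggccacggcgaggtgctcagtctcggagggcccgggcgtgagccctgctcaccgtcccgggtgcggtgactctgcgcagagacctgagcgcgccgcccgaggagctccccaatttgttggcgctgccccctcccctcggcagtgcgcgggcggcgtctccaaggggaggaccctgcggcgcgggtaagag
Each window held 1 match, at different places, and the windows had a GC content of 74.0% and 73.7%. The motifs searched on both strands were AGATAA for GATA factors, GCCNNNGGC for TFAP2 factors, ACAATG for SOX factors, TGTTTAC for FOXA factors, GGAATG for TEAD factors, GGGCGGG for SP and KLF factors, and the HNF1 motif, and none overlaps another in these windows. Over all 32851 promoter windows of the table, 16.59% held the TFAP2 letters, 11.18% the GATA letters, 3.65% the FOXA letters, 12.57% the SOX letters, 14.66% the TEAD letters, 25.57% the SP and KLF letters and 0.01% the HNF1 motif. A match is a description of the letters and not of binding.

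Of the 10809 genes tested, 8721 matched a promoter window, with 11176 windows. The TFAP2 letters stood in 27.62% of the windows of genes higher in TSCs, 25.88% of those of genes higher in XEN cells and 24.81% of those of genes not called. The GATA letters stood in 5.65%, 7.05% and 5.88% and the FOXA letters in 1.9%, 3.23% and 2.44% of the windows, in the same order. The TEAD letters stood in 11.68%, 14.01% and 10.98%, the SOX letters in 6.45%, 7.37% and 7.36%, and the HNF1 motif in none. Median GC content was 62.3%, 60.7% and 61.0%, and the SP and KLF letters, which are rich in G and C, stood in 51.59%, 46.66% and 47.63%. For genes over 8-fold higher in TSCs and in XEN cells, the TFAP2 letters stood in 28.97% and 32.76% of the windows. In the same order, the GATA letters stood in 5.98% and 7.47%, the FOXA letters in 2.3% and 4.6% and the TEAD letters in 12.87% and 16.67%. The SOX letters stood in 5.98% and 6.32% and the SP and KLF letters in 50.8% and 47.13%. These shares are given without a test.

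Collagens are hydroxylated, folded and loaded into large carriers before secretion, and the enzymes of these steps were mostly higher in XEN cells. Of 30 tested, 21 were higher in XEN cells, 5 in TSCs and 4 were not called, with a median of -1.47. The prolyl hydroxylase gene P4ha2 stood at 19.1 and 18.2 in TSCs against 409 and 466 in XEN cells, and the gene of its β subunit, P4hb, at 800.2 and 878 in TSCs against 2930 and 3596 in XEN cells. The lysyl hydroxylase gene Plod2 stood at 24.2 and 16.6 in TSCs against 307 and 357 in XEN cells. None of the 3 overlapped between the cell types, like every called gene and 76.2% of all genes tested. P4ha2 had the larger difference, -4.51 ± 0.13 against -1.95 ± 0.16 for P4hb. P3h2, a prolyl 3-hydroxylase gene known to act on collagen IV, was higher in XEN cells (-3.52), whereas its relative P3h3 was higher in TSCs (3.83). The other members higher in TSCs included the fibrillar collagen chaperone gene Fkbp10 (266 and 74.7 in TSCs against 4.305 and 7.54 in XEN cells) and the lysyl oxidase-like gene Loxl3 (48.5 and 6.34 in TSCs against 0.286 and 0.463 in XEN cells). Both were over 3-fold higher in TSC replicate 1, the library with more feeder marker RNA, and Lox and Loxl1, in the TSC table only, stood at 1299 and 101 TPM and 40.8 and 6.84 TPM. Loxl4, from the chromosome 19 stretch described below, stood at 31.8 and 24.2 in TSCs against 0.673 and 0.271 in XEN cells and was close between the TSC libraries.

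Epithelial junction and keratin genes were higher in TSCs. Of 34 tested, 24 were higher in TSCs, 1 in XEN cells and 9 were not called, with a median log2 fold change of 2.15. A further 7 were in the TSC table only and 1 in the XEN cell table only. E-cadherin, the main adhesion protein of epithelia, is encoded by Cdh1, which stood at 150.3 and 230.4 in TSCs against 12.7 and 2.73 in XEN cells, a log2 fold change of 4.83 ± 0.70 (adjusted p = 0.0086, limma). The desmosomal plakophilin gene Pkp3 stood at 69.02 and 128 in TSCs against 1.56 and 0.7999 in XEN cells. The keratins encoded by Krt8 and Krt18 pair to form the first intermediate filaments of the trophectoderm. Krt18 stood at 9493 and 18750 in TSCs against 1763 and 804 in XEN cells, a log2 fold change of 3.49 ± 0.50, and Krt8, added after its values were seen, at 3697 and 7449 in TSCs against 1356 and 792 in XEN cells, a log2 fold change of 2.34 ± 0.43. Both keratin genes were about 2-fold higher in TSC replicate 2 than in replicate 1 and remained above both XEN cell libraries, and Krt7, in the TSC table only, stood at 537 and 761 TPM. The claudin genes of tight junctions were also high in TSCs, with Cldn4 at a log2 fold change of 10.37 and Cldn3 in the TSC table only at 514 and 1115 TPM. The only member higher in XEN cells was Ocln, which encodes occludin and was low in both types (0.632 and 0.9004 in TSCs against 2.18 and 1.43 in XEN cells). Its call was lost without TSC replicate 1 or without XEN cell replicate 1. The tight junction scaffold gene Tjp1 stood at 18.7 and 20.7 in TSCs against 27.7 and 19.5 in XEN cells and did not pass the test (adjusted p = 0.431, limma).

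Krt8 and Krt18 start 23874 bases apart on chromosome 15 and Cldn3 and Cldn4 start 39280 bases apart on chromosome 5, so each couple is a pair of neighbours that shared a direction. Their windows are shown as those of Col4a1 and Col4a2 were (RefSeq, GRCm38.p6). Krt8 is chr15:102004293-102004592 on the minus strand, Krt18 chr15:102027966-102028265 on the plus strand, Cldn3 chr5:134985964-134986263 on the plus strand and Cldn4 chr5:134946885-134947184 on the minus strand. Capitals mark the GATA letters in Krt8, the TFAP2 letters in Krt18, and the TFAP2 letters and the SP and KLF letters in Cldn3.
Krt8: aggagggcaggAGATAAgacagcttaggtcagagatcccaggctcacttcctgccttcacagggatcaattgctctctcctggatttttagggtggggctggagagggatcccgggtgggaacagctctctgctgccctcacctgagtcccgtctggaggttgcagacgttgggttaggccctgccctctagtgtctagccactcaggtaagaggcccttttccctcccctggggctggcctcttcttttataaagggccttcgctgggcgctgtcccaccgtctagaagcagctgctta
Krt18: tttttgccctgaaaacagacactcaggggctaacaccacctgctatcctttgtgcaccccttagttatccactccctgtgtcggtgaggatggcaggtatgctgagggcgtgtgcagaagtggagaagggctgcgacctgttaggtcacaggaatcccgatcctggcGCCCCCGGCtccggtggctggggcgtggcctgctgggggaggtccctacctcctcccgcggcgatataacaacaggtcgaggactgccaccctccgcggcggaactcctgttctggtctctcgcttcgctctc
Cldn3: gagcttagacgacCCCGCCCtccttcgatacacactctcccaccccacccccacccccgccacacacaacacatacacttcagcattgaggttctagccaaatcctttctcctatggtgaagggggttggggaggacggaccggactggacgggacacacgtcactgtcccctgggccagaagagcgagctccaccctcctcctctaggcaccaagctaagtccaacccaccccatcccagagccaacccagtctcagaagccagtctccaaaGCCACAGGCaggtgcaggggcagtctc
Cldn4: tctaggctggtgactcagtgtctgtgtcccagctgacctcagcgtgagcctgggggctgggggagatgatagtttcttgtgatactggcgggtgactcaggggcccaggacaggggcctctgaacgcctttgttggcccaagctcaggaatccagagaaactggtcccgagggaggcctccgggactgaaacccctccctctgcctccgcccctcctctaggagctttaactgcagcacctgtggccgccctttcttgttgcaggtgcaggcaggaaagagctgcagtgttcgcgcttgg
No letters searched were in the Cldn4 window, which says nothing about the factors. GC content was 58.0% for Krt8, 61.3% for Krt18, 60.7% for Cldn3 and 61.0% for Cldn4.

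Mesenchymal genes were split. Of 18 tested, 7 were higher in TSCs and 3 in XEN cells, with a median of 0.70, and 8 were in the TSC table only. Without TSC replicate 1 the counts were 5 and 5. The fibronectin gene Fn1 stood at 1023 and 195 in TSCs against 4.23 and 3.71 in XEN cells, the receptor kinase gene Axl at 219.5 and 39.2 in TSCs against 4.08 and 0.499 in XEN cells and the matrix protease gene Mmp2 at 29.3 and 6.65 in TSCs against 0.0947 and 0.311 in XEN cells. These 3 genes were 4-fold or more higher in TSC replicate 1 than in replicate 2, where the feeder markers were also lower but still present. Leaving out replicate 1 therefore cannot tell feeder RNA from RNA of TSCs, and the source of these transcripts was not tested. Mmp2 also passed the filter through the TSC libraries alone, so it had to differ. Of the feeder fibroblast list, 6 genes were tested and 5 called higher in TSCs, and 19 were in the TSC table only and 2 in the XEN cell table only. The list summed to 3902 in TSC replicate 1 and 499.9 in replicate 2. The smooth muscle actin gene Acta2 stood at 1585 and 146 in TSCs against 6.12 and 1.84 in XEN cells. Without TSC replicate 1 the median of the mesenchymal list was 0.09, and without TSC replicate 2 it was 1.39. On the XEN cell side were Sparc and Ctsl, which the parietal endoderm list also holds, and Snai1. The zinc finger repressor gene Snai1, known for epithelial-mesenchymal transition, stood at 154 and 156 in TSCs against 292 and 408 in XEN cells, a log2 fold change of -1.15 ± 0.19. The intermediate filament gene Vim stood at 3330 and 492 in TSCs against 1519 and 1866 in XEN cells and its direction depended on the TSC library, with a log2 fold change of 0.98 without TSC replicate 2 and -0.40 with all libraries.

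FGF signals through receptor tyrosine kinases to ERK, and ERK switches on its own feedback inhibitors. Of 31 genes tested, 16 were higher in TSCs and 5 in XEN cells, with a median of 0.92, and 5 were in the TSC table only and 1 in the XEN cell table only. After quantile normalization the counts were 13 and 6, with a median of 0.81. With 1 library left out the median ran from 0.695, without TSC replicate 1, to 1.277, without TSC replicate 2. The receptors were divided. Fgfr1 stood at 88.7 and 49.8 in TSCs against 0.244 and 0.171 in XEN cells, a log2 fold change of 6.57 ± 0.32, whereas Fgfr3 stood at 9.096 and 7.48 in TSCs against 72.3 and 76.95 in XEN cells, a log2 fold change of -3.10 ± 0.17. Fgfr2, the receptor known to respond to FGF4 in trophoblast, was low per base of gene span in both types. Among the ligands, Fgf10 was higher in XEN cells (0.153 and 0.0488 in TSCs against 5.41 and 9.196 in XEN cells) and Fgf3 had a row in the XEN cell table only, at 67.4 and 57.3 TPM. Of the ERK feedback genes, the phosphatase gene Dusp5 stood at 238 and 170 in TSCs against 0.604 and 0.426 in XEN cells and the transcription factor gene Fosl1 at 161 and 123 in TSCs against 11.6 and 0.856 in XEN cells. Dusp6 stood at 458 and 203 in TSCs against 119 and 46.98 in XEN cells, with an adjusted p of 0.0512 (limma), and lost its call without TSC replicate 1 or without XEN cell replicate 2. Dusp5 was called whichever library was left out. The glypican genes, whose products bind FGFs, also went in opposite directions, with log2 fold changes of 4.83 ± 0.49 for Gpc1 and -3.47 ± 0.19 for Gpc3. FGF4 and heparin were in the TSC medium and the cell types cannot be told apart from their media.

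In the Nodal, activin and BMP list, 13 of 32 genes tested were higher in TSCs and 8 in XEN cells, with a median of 0.51, and 10 were in the TSC table only and 1 in the XEN cell table only. After quantile normalization the counts were 11 and 10, with a median of 0.32. With 1 library left out the median ran from 0.289 to 0.725, and it was 0.303 without TSC replicate 1. Secreted antagonists led the XEN cell side. Besides Nog, the activin antagonist gene Fst stood at 45.4 and 14.6 in TSCs against 1213 and 916 in XEN cells and the BMP modulator gene Bmper at 0.417 and 0.0933 in TSCs against 12.3 and 10.7 in XEN cells. BMP signal transducers and targets were among the members higher in TSCs, with Smad1 at 7.52 and 7.01 in TSCs against 0.314 and 0.254 in XEN cells, the inhibitory Smad6 at 11.2 and 6.23 in TSCs against 0.493 and 0.271 in XEN cells and the BMP target Id2 at a log2 fold change of 5.79 ± 0.83. Smad1 passed the filter through the TSC libraries alone, so it had to differ. The ligand genes Bmp4, at 103 and 136 TPM, Bmp8b, at 108 and 102 TPM, and Nodal, at 9.65 and 5.48 TPM, were in the TSC table only. Id4, also a known BMP target, was instead higher in XEN cells, at 4.53 and 1.6 in TSCs against 56.9 and 40.04 in XEN cells. Fstl1, which encodes a secreted follistatin-like protein, stood at 77.9 and 16.5 in TSCs against 0.0934 and 0.0317 in XEN cells and Inhba, which encodes an activin subunit and had a row in the TSC table only, at 559.6 and 61.4 TPM. Fstl1 and Inhba were over 4-fold higher in TSC replicate 1, where the feeder markers were also higher.

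Wnt ligands signal through frizzled receptors to β-catenin and the TCF factors. Of 32 Wnt genes tested, 15 were higher in TSCs and 8 in XEN cells, with a median of 0.63, and 13 were in the TSC table only and 1 in the XEN cell table only. The count of 8 was 5 without TSC replicate 2 and 4 without XEN cell replicate 1. The ligand genes Wnt7b (100.5 and 106 in TSCs against 10.04 and 4.29 in XEN cells) and Wnt7a (4.72) were higher in TSCs, as was the nuclear effector gene Tcf7, at 67.5 and 70.1 in TSCs against 1.31 and 1.07 in XEN cells. The receptors were divided between the types. Fzd1 was higher in TSCs (4.07), and Fzd4 (-3.94) and Fzd7 (-2.61) were higher in XEN cells, where Fzd7 stood at 538 and 815 against 186 and 62.7 in TSCs. Porcn, which encodes the acyltransferase that Wnt ligands need for secretion, was higher in XEN cells at 1.98 and 1.28 in TSCs against 24.3 and 37.9 in XEN cells, and so was the R-spondin receptor gene Lgr4 (-2.40). The β-catenin gene Ctnnb1 stood at 309 and 284 in TSCs against 253 and 225 in XEN cells and did not pass the test (adjusted p = 0.119, limma).

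Retinoic acid genes included 3 higher in TSCs and 4 higher in XEN cells of 14 tested, with a median of 0.18, and 4 were in the TSC table only and 2 in the XEN cell table only. The enzyme gene Cyp26a1, which degrades retinoic acid, stood at 117 and 74.6 in TSCs against 2776 and 1872 in XEN cells, a log2 fold change of -4.60 ± 0.30, and its neighbour Cyp26c1 at 1.06 and 0.728 in TSCs against 18.1 and 16.2 in XEN cells. The retinol uptake receptor gene Stra6 stood at 0.306 and 1.75 in TSCs against 29.6 and 38.2 in XEN cells. The nuclear receptor genes Rxra (14.9 and 15.03 in TSCs against 0.0644 and 0.0437 in XEN cells) and Rarg (3.22) were higher in TSCs. Cyp26a1, Cyp26c1 and Rbp4 lie in the stretch of chromosome 19 described below.

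The pluripotency genes tested, 11 of 22, were all called, 5 higher in TSCs and 6 in XEN cells, and 4 were in the TSC table only and 3 in the XEN cell table only. Their median was -1.24, and it ran from -1.87, without TSC replicate 2, to -0.60, without TSC replicate 1. TSCs were higher in Utf1 (1966 and 3283 in TSCs against 8.88 and 8.57 in XEN cells) and in the neighbouring genes Dppa4 (61.8 and 67.95 in TSCs against 0.883 and 0.882 in XEN cells) and Dppa2 (5.20), as well as in Klf2 (2.95). Sox2, which TSCs are known to need, and Zfp42 and Esrrb had rows in the TSC table only. XEN cells were higher in Klf4 (104 and 89.4 in TSCs against 1198 and 824 in XEN cells), in the RNA-binding protein gene Lin28a (50.5 and 61.7 in TSCs against 428 and 553 in XEN cells) and in Sall4 (56.5 and 69.1 in TSCs against 171 and 325 in XEN cells). Nanog and Pou5f1 were at low levels in the table that held them.

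Imprinted genes, which are expressed from 1 parental allele and are many in the placenta, included 15 higher in TSCs and 9 higher in XEN cells of 37 tested, with a median of 0.23, and 20 in the TSC table only. The growth inhibitor gene Grb10 stood at 101 and 90.02 in TSCs against 0.0601 and 0.02098 in XEN cells, a log2 fold change of 7.47 ± 0.18, and Mest at 61.7 and 33.4 in TSCs against 0.4097 and 0.121 in XEN cells. The retrotransposon-derived placental gene Peg10 stood at 1776 and 4837 in TSCs against 625 and 353 in XEN cells and was over 2-fold apart between the TSC libraries. The zinc finger gene Peg3 was instead higher in XEN cells, at 75.8 and 119 in TSCs against 565 and 338 in XEN cells, as were Impact (-2.37) and Ddc (-2.10). Parental alleles cannot be told apart in these tables. Of 16 DNA methylation enzymes tested, 4 were higher in each type. Dnmt3b stood at 93.9 and 107 in TSCs against 53.3 and 50.5 in XEN cells, Dnmt3a at 9.7 and 11.6 in TSCs against 1.84 and 2.73 in XEN cells and their cofactor gene Dnmt3l at 3.89 and 3.92 in TSCs against 0.1998 and 0.872 in XEN cells. All of these de novo methylation genes were higher in TSCs. Tet2 was higher in TSCs (2.46) and Tet3, Tet1 and the glycosylase gene Tdg (-1.20) in XEN cells, as was Hells, a chromatin remodeller gene on the chromosome 19 stretch (22.2 and 26.7 in TSCs against 186 and 205 in XEN cells). Of the Rhox homeobox genes, Rhox5 was tested and stood at 1466 and 1957 in TSCs against 97.4 and 110.4 in XEN cells.

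Glycolysis genes were called in both directions. Of 22 tested, 7 were higher in TSCs and 5 in XEN cells, with a median of 0.07. The hexokinase gene Hk1 stood at 56.9 and 60.8 in TSCs against 7.13 and 6.53 in XEN cells and the phosphofructokinase gene Pfkp at 36.2 and 29.2 in TSCs against 0.121 and 0.148 in XEN cells. Against these, the glucose transporter gene Slc2a3 stood at 11.7 and 20.2 in TSCs against 566 and 291 in XEN cells and Gapdh at 3286 and 3436 in TSCs against 9228 and 8627 in XEN cells, both higher in XEN cells. Of 76 oxidative phosphorylation subunit genes, 28 were higher in XEN cells and 1 in TSCs, with a median of -0.41. The count of 28 was 18 without XEN cell replicate 1, 17 without XEN cell replicate 2 and 19 on CPM of recovered reads. Cox8a stood at 721 and 687 in TSCs against 2475 and 2801 in XEN cells and the complex I gene Ndufb8, on the chromosome 19 stretch, at 91.5 and 93.03 in TSCs against 608 and 663 in XEN cells. The member higher in TSCs, Cox6b2 (0.58), was not called without TSC replicate 2 or without XEN cell replicate 1. Of 80 cytosolic ribosomal protein genes, 14 were higher in XEN cells and 1 in TSCs, with a median of -0.20, and the share higher in XEN cells was below that of all genes tested. The count of 14 was 8 without XEN cell replicate 2, 11 on CPM of recovered reads and 20 without rescaling. Rps2 stood at 1841 and 2146 in TSCs against 5315 and 6044 in XEN cells, and Rpl23, the member higher in TSCs, was called in 1 of the 4 fits that left a library out and lies on chromosome 11, with 0.11 once the median of that chromosome was subtracted. Ribosomal protein genes have many processed copies in the genome, so their reads are uncertain. Of 23 cholesterol synthesis genes, 10 were higher in TSCs and 3 in XEN cells, with a median of 0.50. The count of 10 was 6 without TSC replicate 1 or XEN cell replicate 1 and 5 without TSC replicate 2 or XEN cell replicate 2, and 6 without rescaling or after quantile normalization. The sterol oxidase gene Msmo1 stood at 50.3 and 54.6 in TSCs against 25.7 and 16.9 in XEN cells. Insig1, whose product holds the pathway back, was higher in XEN cells at 42.4 and 48.9 in TSCs against 316 and 269 in XEN cells.

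Lysosome and endocytosis genes, the machinery of the absorptive endoderm, included 21 higher in XEN cells and 5 higher in TSCs of 39 tested, with a median of -0.64. The list shares Cubn, Lrp2, Dab2 and Ctsh with the visceral endoderm list. The protease gene Ctsl stood at 464 and 372 in TSCs against 3740 and 1901 in XEN cells and the lysosomal membrane gene Lamp1 at 448 and 391 in TSCs against 1088 and 836 in XEN cells. The members higher in TSCs were not of 1 kind. The glucuronidase gene Gusb stood at 28.03 and 16.8 in TSCs against 1.41 and 1.199 in XEN cells, the HDL receptor gene Scarb1 at 35.04 and 46.4 in TSCs against 4.78 and 2.83 in XEN cells, and the receptor gene Lrp1, which fibroblasts also express, at 67.01 and 13.5 in TSCs against 0.839 and 1.17 in XEN cells. The Y-linked genes that were tested were higher in XEN cells. Ddx3y stood at 0.948 and 1.25 in TSCs against 38.1 and 38.6 in XEN cells, Eif2s3y at 1.105 and 1.06 in TSCs against 18.4 and 23.1 in XEN cells and Uty at 0.0659 and 0.0267 in TSCs against 1.46 and 1.31 in XEN cells, while Kdm5d was too low to test. Reads of their X-linked relatives can be assigned to these genes, and the TSC libraries also held feeder markers.

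The difference between the cell types was not even along the genome. Positions are those of the mm10 annotation, and the looks at chromosomes described here were chosen after the data were seen and carry no test. On 14 autosomes, with 7706 genes tested, the median log2 fold change lay between -0.05 and 0.17, and 19.8% to 27.2% of genes were called higher in TSCs and 11.7% to 24.1% higher in XEN cells. Chromosome 11 stood above this range. Of its 919 genes, 404 (44%) were higher in TSCs and 50 (5.44%) higher in XEN cells, and the median was 0.54, a 1.449-fold difference. Chromosome 1 stood below it. Of 585 genes, 257 (43.9%) were higher in XEN cells and 66 (11.3%) higher in TSCs, with a median of -0.57, a 1.48-fold difference towards XEN cells. The same direction, to a lesser extent, was seen on chromosome 6 (median -0.40), chromosome 12 (-0.30), chromosome 19 (-0.20) and chromosome X (-0.15). Divided into 5 parts by gene order, chromosome 11 had medians from 0.44 to 0.60 and chromosome 1 from -0.62 to -0.475, so the shift ran along their length. Chromosome 3, which is among the 14 autosomes, was uneven. Its medians were 0.02 to 0.11 in parts 1 to 3, then -0.34 in part 4 and -0.43 in part 5. Between single libraries of the cell types, the median difference on chromosome 1 ran from -0.64 to -0.46.

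Normoxic libraries of E14 ESCs, added after the data were seen, were compared with each type. Both differences share the ESC libraries and are given side by side. On chromosome 11 the median difference from ESCs was 0.55 in TSCs and -0.06 in XEN cells. On chromosome 1 it was 0.22 in TSCs and 0.58 in XEN cells, on chromosome 6 it was 0.11 and 0.36, and over all chromosomes it was 0.09 and 0.00. With the median difference of each chromosome subtracted, 3870 of the 4643 called genes were still called and 0 in the opposite direction. Of the 404 chromosome 11 genes higher in TSCs, 91 differed by more than 4-fold, against 815 of the 2536 over all chromosomes. Of the lists above, the medians of primitive endoderm regulators (-3.39), basement membrane genes (-1.33), collagen secretion enzymes (-1.36) and epithelial genes (2.06) kept their direction. The labels give no karyotype, and copies of a chromosome and RNA made per copy cannot be told apart in these tables.

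**Figure D4:**
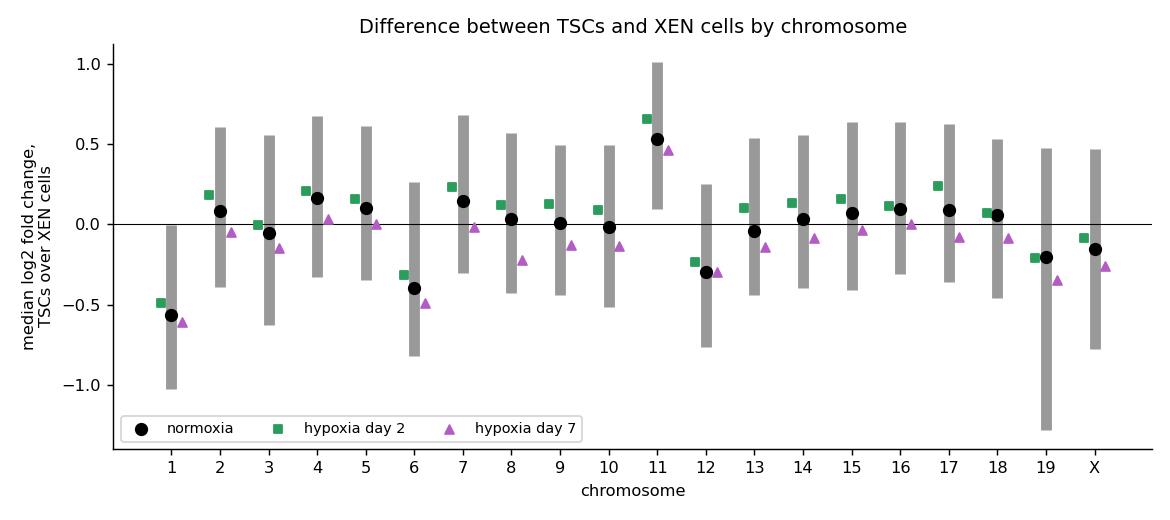
Median log2 fold change, TSCs over XEN cells, of the genes tested on each chromosome in normoxia (black circles, with grey bars over the middle 50% of genes), and on day 2 (green squares) and day 7 (purple triangles) of hypoxia. Chromosome 11 lies above 0 and chromosomes 1, 6 and 12 lie below 0 in all conditions.

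Chromosome 19 held its shift in 1 stretch. Where the running median over 15 neighbouring genes stayed beyond 1 on the log2 scale, 36 runs were found over the genome and 1 of them held 15 genes or more. It ran from Ankrd1 to Slk (chr19:36111961-47645246, mm10), 11533286 bases with 109 tested genes, of which 91 (83.5%) were higher in XEN cells, 4 higher in TSCs and 14 not called. The median was -1.89, a 3.7-fold difference. The tested genes before it on the chromosome had a median of -0.03, and the 40 genes after it a median of 0.77. Named after their values were seen, the genes of the stretch include the mitotic kinesin gene Kif11 (26.8 and 30.3 in TSCs against 98.99 and 115 in XEN cells) and the kinase gene Chuk (26.9 and 18.8 in TSCs against 164 and 156 in XEN cells). Hif1an, which encodes the asparaginyl hydroxylase that acts on HIF1α, stood at 87.8 and 64.4 in TSCs against 362 and 335 in XEN cells, and Sufu, which encodes a hedgehog pathway inhibitor, at 6.798 and 5.01 in TSCs against 30.4 and 32.5 in XEN cells. These 4 genes differed by 1.89 to 2.80 on the log2 scale in the same direction. Among those that differed most were Hhex, Cyp26a1, As3mt (1.08 and 1.45 in TSCs against 79.8 and 46.1 in XEN cells) and the fatty acid desaturase gene Scd2 (293 and 389.8 in TSCs against 4678 and 6671 in XEN cells). Loxl4 (4.89) was among the genes higher in TSCs. Against ESCs, the stretch stood 1.95 and 1.76 higher in the XEN cell libraries, while the TSC libraries differed by -0.12 and -0.17. As the bounds were set by the values, these figures describe the stretch, and whether it reflects more copies or more RNA per copy cannot be told apart.

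**Figure D5:**
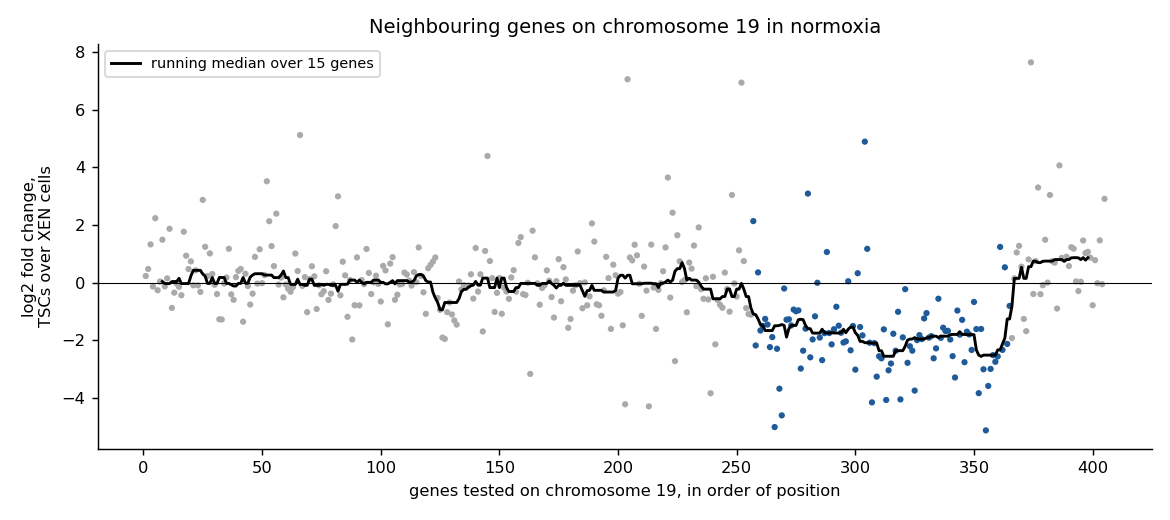
Log2 fold change, TSCs over XEN cells, of the 405 genes tested on chromosome 19 in order of position, with the running median over 15 genes as a black line. Blue points are the 109 genes from Ankrd1 to Slk, where the line runs between -2.555 and -1.085, while over the genes before them it runs between -0.94 and 0.70.

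The comparison was repeated between the libraries on day 2 and day 7 of hypoxia, which are other libraries of the same cell types. On day 2, 3386 genes were higher in TSCs and 2291 in XEN cells of 10849 tested (52.3% called), and on day 7 the counts were 2283 and 2844 of 10796 (47.5%). Of the 4643 genes called in normoxia, 80.5% of those tested were called in the same direction on day 2 and 80.3% on day 7, and 3116 on both days. In the opposite direction, 15 were called on day 2 and 15 on day 7. The median of the parietal endoderm genes was -2.63 in normoxia, -2.80 on day 2 and -2.72 on day 7, and that of the epithelial genes 2.15, 2.38 and 1.97, while visceral endoderm genes had -2.70, -1.65 and -2.44. Pluripotency genes changed sign on day 2, with medians of -1.24, 0.31 and -1.24. The chromosome 19 stretch had -1.89, -1.74 and -1.95, and chromosome 11 had 0.54, 0.66 and 0.46. Ribosomal protein genes were less steady, with 1 higher in TSCs and 14 in XEN cells in normoxia but 30 and 4 on day 2, and oxidative phosphorylation genes with 1 and 28 in normoxia and 15 and 7 on day 2. Over all genes tested, the count higher in TSCs also rose, from 2536 of 10809 in normoxia to 3386 of 10849 on day 2. The change of these counts was not tested. The change of the difference itself from normoxia to day 7 was tested gene by gene, and 17 of 10891 genes (0.156%) passed an adjusted p of 0.1 (limma), with 969 under an unadjusted p of 0.05. All 17 moved towards XEN cells. With single libraries left out the number passing ran from 0, without TSC day 7 replicate 2, to 87, without XEN cell normoxia replicate 2. Elf5, Pou3f1 and Cyp26a1 were among the 17, with changes of -2.25 ± 0.28, -4.32 ± 0.69 and -3.30 ± 0.54 (SE) on the log2 scale.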

How the data were processed

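RNA from 2 normoxic TSC and 2 normoxic XEN cell libraries was sequenced as paired-end reads. According to the methods and the submitters' processing notes, the authors trimmed reads with cutadapt 2.4, aligned them to mm10 with STAR 2.7.5a, and used StringTie 2.0.6, featureCounts and edgeR 3.26.8. The deposited TPM values were made by the authors with 1 table per cell type, each holding protein-coding genes that had passed a CPM filter. How multimapping reads and strand were counted is not given in the sources used here, so overlapping, antisense and near-identical genes are uncertain. Columns named for day 0 were taken as normoxia.

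The 2 tables were joined on Ensembl identifier and each library was rescaled to a sum of 1000000 over the shared genes. limma 3.58.1 in R 4.3.3 was run with a trend on mean expression, on log2(rescaled TPM + 0.5), for genes over 0.4 in at least 2 of the 4 libraries, and checked on simulated data. Whole reads were recovered from 98.67% to 98.86% of values, within 0.05 of a whole number, and served for depth and as an alternative only. Depth limits genes near 0. The gene lists, the members and the rule for naming genes were chosen with earlier results of these data known. The rule named the 10 largest called differences in each direction with a mean of at least 10 in the higher cell type, in each list up to 4 members with the largest differences in each direction and the 2 with the highest levels, list members and the 10 highest genes held by 1 table, and Cdx2, Gata4 and Nanog. Marker genes and genes marked as such lie outside it. Alternatives were other scalings, pseudocounts, filters and thresholds, a replicate block and leaving out each library. Results for a few genes are not reported here.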

Additional observations from a re-analysis of the deposited data

Results flagged for a closer look

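For 3 named genes the difference between TSCs and XEN cells changed from normoxia to day 7 of hypoxia by the interaction test over all genes (limma, n = 2 libraries a group). The change in Pou3f1 was -4.321 (SE 0.695, adjusted p = 0.0763) on the log2 scale, from 9.215 to 4.894. TSCs stood at 439.8 and 471 in normoxia and 142.7 and 171.9 on day 7, and XEN cells at 0.482 and 0.0983, then 7.47 and 3.001. The change in Elf5 was -2.254 (SE 0.283, adjusted p = 0.026), from 6.686 to 4.431, and its TSC level went from 63.0 and 59.2 to 19.7 and 15.4. The change in Cyp26a1 was -3.299 (SE 0.538, adjusted p = 0.0763), from -4.599 to -7.898, and its TSC level went from 117.3 and 74.6 to 11.7 and 7.71, while XEN cells stood at 2776 and 1872 in normoxia and 2134 and 2666 on day 7.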

How the results depend on the processing

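Under 18 alternative settings no gene called in normoxia was called in the opposite direction. With an adjusted p of 0.05 and a 4-fold difference, 788 genes were higher in TSCs and 357 in XEN cells. Leaving out 1 library gave 1932 to 2502 genes higher in TSCs and 1481 to 2192 higher in XEN cells. The interaction with day 7 passed in 0 to 87 genes when 1 library was left out. The replicate numbers are not known to pair the samples (correlation of deviations 0.071), and with a replicate block 2597 and 2154 genes were called and 13 passed the interaction test. Among named genes the block added Loxl2 (-1.999, adjusted p = 0.0286, limma) and Aldh1a3 (1.07, adjusted p = 0.0672, limma).

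List medians moved as follows, and the cause was not tested. With the minimum raised to a rescaled TPM of 1 in all 4 libraries, which leaves fewer genes, the medians were 0.28 for trophoblast differentiation, -4.81 for primitive endoderm, -2.24 for visceral endoderm, -0.006 for imprinted genes, -0.34 for DNA methylation and -0.002 for glycolysis. On CPM of recovered reads they were -0.34 for pluripotency, -0.14 for DNA methylation, 0.20 for glycolysis and -0.077 for ribosomal protein genes. After quantile normalization they were -0.365 for DNA methylation, 0.17 for glycolysis and -3.997 for Y-linked genes. With a pseudocount of 0.1 they were 3.25 for trophoblast stem cell regulators and -4.13 for Y-linked genes, which had -3.38 with a pseudocount of 1. Glycolysis had 0.019 without rescaling and 0.01 with chromosome medians subtracted. Leaving out 1 library gave 2.37 to 3.13 for trophoblast stem cell regulators, -0.334 to -0.115 for DNA methylation and -0.028 to 0.13 for glycolysis.

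Of the named genes, those that changed direction were not called with all libraries, Rpl38 (adjusted p = 0.0487, limma) because its fold change was under 1.5. With 1 library left out Klf5 ran from -0.78 to 0.071, Pparg from -0.59 to 0.105, Apoe from -0.41 to 1.54, Tjp1 from -0.48 to 0.012, Vim from -1.77 to 0.98 and Tinagl1 from -0.343 to 0.348. With chromosome medians subtracted Pparg was 0.157, Tinagl1 -0.163 and Rpl38 -0.122. Tinagl1 was -0.052 without rescaling and -0.039 with median-ratio scaling. Of 3470 values of named genes under alternatives, 3371 kept direction and call, 12 changed direction, 24 gained the call and 63 lost it, 38 of these to the stricter threshold.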
